A study of Mus musculus with 3 samples.

Results

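The 35 genes described here encode the machinery of G2 and M phase, and they were followed in single cells of mouse small intestinal crypts. They were chosen by name, as genes known for work in mitosis, and all 35 of 35 were found among the 28692 genes of the tables. They fall into 8 groups by role, namely CDK1 with its cyclins and CKS subunits, the other mitotic kinases with the passenger protein survivin, the spindle checkpoint, the anaphase promoting complex, the centromere and kinetochore, the motors and spindle proteins, the midzone and cytokinesis, and chromosome structure. The samples were 3 libraries of small intestinal crypt cells, 1 per genotype, from C57BL/6 mice of 2 to 3 months, made with 10x Genomics Chromium 3' chemistry of version 3. The rescue carried Olfm4-IRES-eGFPCreERT2 with CDC42flox/flox, Yapflox/flox and Tazflox/+, the KO carried Olfm4-IRES-eGFPCreERT2 with CDC42flox/flox, and the control carried Olfm4-IRES-eGFPCreERT2 with CDC42+/flox. All 3 thus carried the same Cre, driven from *Olfm4*, a gene of crypt base stem cells, and at least 1 floxed *Cdc42* allele. The labels and headers do not say how Cre was induced or how many animals went into a library.

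CDC42 is a small GTPase that sets up cell polarity. The co-activators YAP, from *Yap1*, and TAZ, from *Wwtr1*, are held back by Hippo signalling. A cell enters mitosis when CDK1, bound to cyclin B and switched on, phosphorylates the nuclear envelope, the chromosomes and the spindle. It leaves mitosis when the anaphase promoting complex marks cyclin B and securin for destruction. The transcripts of this machinery build up through S and G2 phase, under B-MYB (*Mybl2*), FOXM1 and the MuvB proteins, and are low in G1 and in cells that have stopped dividing. In the small intestine the dividing cells are the stem cells and the transit amplifying cells of the crypt, and the enterocytes of the villus do not divide.

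Many promoters of such genes carry a cell cycle genes homology region, or CHR, with the letters TTTGAA, and CCAAT boxes, the site bound by NF-Y. The 250 bases upstream of the start are printed for 4 members picked after their values were seen, 3 whose share of the mitosis transcripts was lowest in the control and 1, *Cks2*, whose share was highest there. They come from the RefSeq promoter table of build GRCm38.p6, which held 30 of the 35 members, and run 5' to 3' along the strand of the gene. Capitals mark TTTGAA or CCAAT on either strand, so that TTCAAA and ATTGG are matches on the opposite strand. Matches that touch run together in capitals.
Top2a, chr11:99024190-99024439, minus strand: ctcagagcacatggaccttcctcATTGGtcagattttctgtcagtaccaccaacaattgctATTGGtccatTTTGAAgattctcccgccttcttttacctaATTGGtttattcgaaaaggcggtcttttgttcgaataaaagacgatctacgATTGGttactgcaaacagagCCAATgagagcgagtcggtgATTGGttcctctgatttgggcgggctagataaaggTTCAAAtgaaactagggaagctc
Cdk1, chr10:69352913-69353162, minus strand: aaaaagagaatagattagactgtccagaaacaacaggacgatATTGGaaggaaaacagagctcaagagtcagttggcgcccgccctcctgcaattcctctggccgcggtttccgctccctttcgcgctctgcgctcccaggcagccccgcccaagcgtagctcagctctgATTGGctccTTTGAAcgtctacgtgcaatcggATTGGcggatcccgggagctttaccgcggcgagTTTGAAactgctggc
Ube2c, chr2:164769679-164769928, plus strand: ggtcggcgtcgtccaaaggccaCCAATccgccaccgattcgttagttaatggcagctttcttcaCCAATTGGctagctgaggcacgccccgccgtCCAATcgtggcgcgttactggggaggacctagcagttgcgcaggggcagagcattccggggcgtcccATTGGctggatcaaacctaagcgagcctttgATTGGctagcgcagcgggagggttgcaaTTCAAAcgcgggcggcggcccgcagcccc
Cks2, chr13:51644982-51645231, plus strand: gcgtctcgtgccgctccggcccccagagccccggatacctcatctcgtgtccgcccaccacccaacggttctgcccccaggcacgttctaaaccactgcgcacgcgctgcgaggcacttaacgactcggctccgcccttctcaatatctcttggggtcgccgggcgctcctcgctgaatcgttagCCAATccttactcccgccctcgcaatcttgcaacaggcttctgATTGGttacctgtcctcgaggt
*Top2a* held TTTGAA matches starting 179 and 23 bases before the start, *Cdk1* held them at 71 and 15 bases and *Ube2c* at 29 bases. *Cks2* held no TTTGAA in this window and CCAAT matches at 65 and 22 bases. Other members went other ways. *Birc5* and *Tacc3*, whose shares were also lowest in the control, held neither motif. *Cdc20*, *Ccnb2* and *Ckap2l*, whose shares were highest in the control, held TTTGAA. Whether the motifs follow the shares was not tested. TTTGAA stood in 36.7% of the members with a promoter (11 of 30), beside 18.3% of the 27025 genes of the table. CCAAT stood in 73.3% of them (22 of 30), beside 37.5%. Both motifs stood in 33.3% (10 of 30), beside 6.45% of all genes. CCAAT and its reverse can overlap, as in one stretch of *Ube2c*, while TTTGAA shares no letters with either here. A match is only a match of letters, and binding was not measured.

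Counts are of unique molecular identifiers, or UMIs, each standing for 1 captured transcript end. Epithelial barcodes were those with at least 2 *Epcam* UMIs and no *Ptprc* UMI, *Epcam* being the epithelial adhesion molecule and *Ptprc* the leukocyte antigen CD45, after limits of 500 genes or more, 1000 UMIs or more and a mitochondrial share of up to 20%. There were 726 in the rescue, 1504 in the KO and 515 in the control, with 39846684, 61355024 and 18549801 UMIs. Their median depth was 46115, 41467 and 33401 UMIs, in the same order. Epithelial barcodes shared by a pair of libraries numbered 0. Levels are CPM, a gene's UMIs over the sum of all UMIs in the same barcodes, scaled to a total of 1000000, with exact Poisson or binomial 95% intervals that cover counting error only. With 1 library per genotype there is no measure of the spread between animals, so no p-value is given and each difference compares 3 libraries. *Cdc42*, the targeted gene, had 427, 397 and 248 CPM in the rescue, KO and control epithelial barcodes low in mitosis genes, so its 3' tags were not lower in the library labelled KO. The labels do not say which exons are floxed, and 3' tags outside the deleted part would check nothing. *Yap1* had 15.5, 22.7 and 24.2 CPM and *Wwtr1* 1.35, 13.2 and 6.06 CPM in those barcodes. Names of libraries below are those of the labels.

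Mitosis transcripts were most abundant in the rescue. Summed over the 35 members, the level was 1803 CPM (1790 to 1816) in the rescue, 645 CPM (639 to 652) in the KO and 742 CPM (730 to 755) in the control. The rescue was 2.79-fold over the KO (2.76 to 2.83) and 2.43-fold over the control (2.39 to 2.48). The KO stood at 0.870 of the control (0.853 to 0.887), and this small difference did not keep its direction, as described below. Across all genes with at least 20 UMIs the median log2 ratio was 0.26 for rescue over KO, 0.01 for rescue over control and -0.28 for KO over control. The median member ratio was 2.61, 2.19 and 0.837 in these comparisons.

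Each member was then taken alone and called where its ratio was at least 2 or at most 0.5. In rescue over KO 32 of 35 members were at least 2-fold higher and 0 at least 2-fold lower, beside 22.7% and 11.1% of all genes. Against the control, 26 of 35 were higher in the rescue and 0 lower, beside 3.52% and 11.6% of all genes. In KO over control 0 of 35 were higher and 1 lower, beside 10.8% and 25.3% of all genes. The 3 members under 2-fold in rescue over KO were *Bub3*, *Tacc3* and *Dlgap5*, at 1.73, 1.95 and 1.95. Rescue over control and rescue over KO share the rescue library, and each ratio is read on its own.

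The libraries differed in how many barcodes carried the genes. Barcodes with at least 10 summed member UMIs made up 55.0% of epithelial barcodes in the rescue (399, interval 51.3 to 58.6), 22.4% in the KO (337, 20.3 to 24.6) and 33.0% in the control (170, 29.0 to 37.3). They held 98.1%, 91.4% and 90.5% of the member UMIs. A barcode of 500 or more summed member CPM, with at least 10 UMIs, is called mitosis-high below. Such barcodes made up 36.5% in the rescue (265, 33.0 to 40.1), 14.6% in the KO (219, 12.8 to 16.4) and 17.3% in the control (89, 14.1 to 20.8). At 2000 CPM or more the shares were 23.1%, 8.91% and 8.93%. The rescue exceeded the other libraries at each threshold, while the KO and control intervals overlapped at 500 and at 2000 CPM.

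The 10-UMI threshold let in deep barcodes with few mitosis transcripts. Of the barcodes past it, 33.6% in the rescue, 35% in the KO and 47.6% in the control were under 500 CPM. Barcodes past it were deeper than the others, with median depths of 58778 against 38259 UMIs in the rescue, 50947 against 38671 in the KO and 42580 against 25480 in the control. As a measure of background, the share past 10 UMIs was also taken in barcodes rich in enterocyte transcripts, which should not divide. It was 12.7% of 220 such barcodes in the rescue, 8.33% of 1009 in the KO and 18.5% of 124 in the control, at median depths of 42778, 45549 and 47078 UMIs. Barcodes with *Ptprc* and without *Epcam* passed in 2.97%, 5.60% and 1.91%, at median depths of 4804, 4885 and 4956 UMIs. With each barcode thinned to 10000 UMIs, the share of all epithelial barcodes was 33.5% in the rescue, 14.5% in the KO and 14.3% in the control. The thinned background in enterocyte-rich barcodes was 0.585% of 171, 0.838% of 835 and 0 of 109, the last allowing 3 barcodes, or up to 2.75%. Thinning left out 81, 291 and 96 shallower barcodes.

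**Figure D1:**
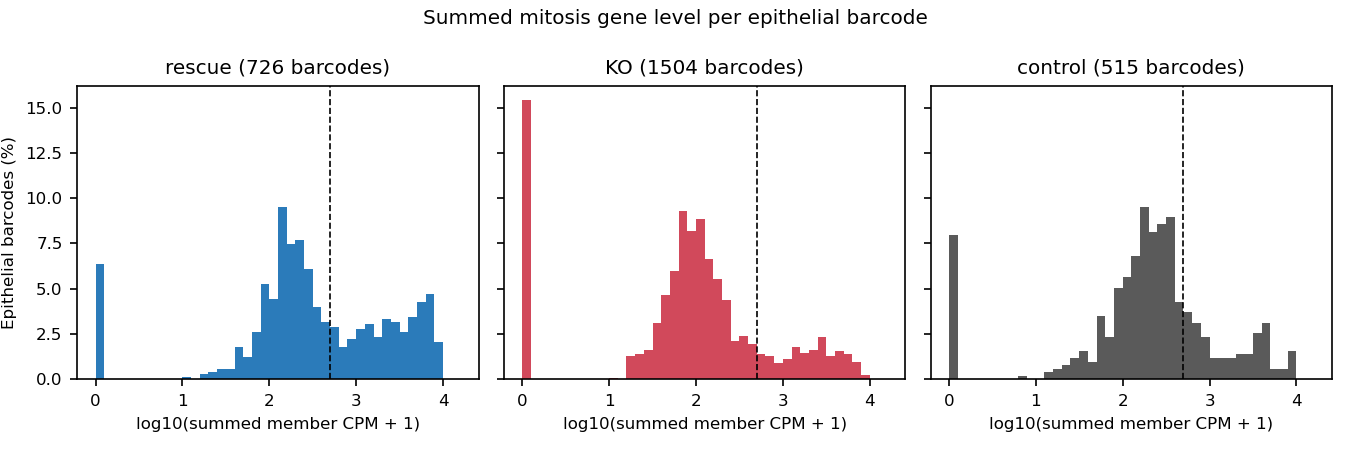
Percent of epithelial barcodes in each class of summed member level, as log10(CPM + 1), in the rescue, KO and control libraries, with a dashed line at 500 CPM. Barcodes right of the line that also have at least 10 member UMIs make up 36.5% in the rescue, 14.6% in the KO and 17.3% in the control, the others right of it have fewer UMIs, and the leftmost bar holds the 46, 232 and 41 barcodes with no member UMI.

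The standing of the KO against the control changed with the barcodes counted and with the scaling. Enterocyte-rich barcodes, those with at least 2% of UMIs from 15 enterocyte markers, were 220 of 726 in the rescue, 1009 of 1504 in the KO and 124 of 515 in the control. All 15 markers were detected in all 3 libraries, with summed levels of 15825, 58651 and 23627 CPM. Without the enterocyte-rich barcodes, mitosis-high barcodes made up 52.2% of 506 in the rescue (47.7 to 56.6), 42.0% of 495 in the KO (37.6 to 46.5) and 22.8% of 391 in the control (18.7 to 27.2). The summed level of the KO was then 1.94 times that of the control, in place of 0.870, and 15 members were at least 2-fold higher, beside 11.5% of all genes, with a median log2 ratio of all genes of 0.12. The rescue was then 1.16 times the KO, in place of 2.79, with 1 member at least 2-fold higher and 0 lower, beside 7.72% and 9.11% of all genes. It was 2.26 times the control, with 18 members higher and 0 lower, beside 7.62% and 12.3%. Under stricter limits of 1000 genes, 2000 UMIs and 10% mitochondrial UMIs, which kept 157, 810 and 157 barcodes, KO over control was 1.59, and with the median gene ratio set to 1, in the same barcodes as the main values, it was 1.05. Over 9 alternatives the ratio of 32 of 35 members in KO over control fell on the other side of 1 in at least 1, as did 13 in rescue over KO and 0 in rescue over control. The KO over control and rescue over KO ratios of single members below are those of all epithelial barcodes, unless others are named. Both carry this limit. Other markers also differed between the epithelial pools. The 8 Paneth markers found summed to 14394, 890 and 82135 CPM in the rescue, KO and control. The 5 erythroid genes summed to 366, 96.9 and 30.1 CPM, the 8 B and plasma cell markers to 196, 3.90 and 3.45 CPM and the 10 T cell markers to 36.6, 5.36 and 55.2 CPM. The part of these other transcripts in the member levels was not tested, apart from the values without enterocyte-rich barcodes.

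**Figure D2:**
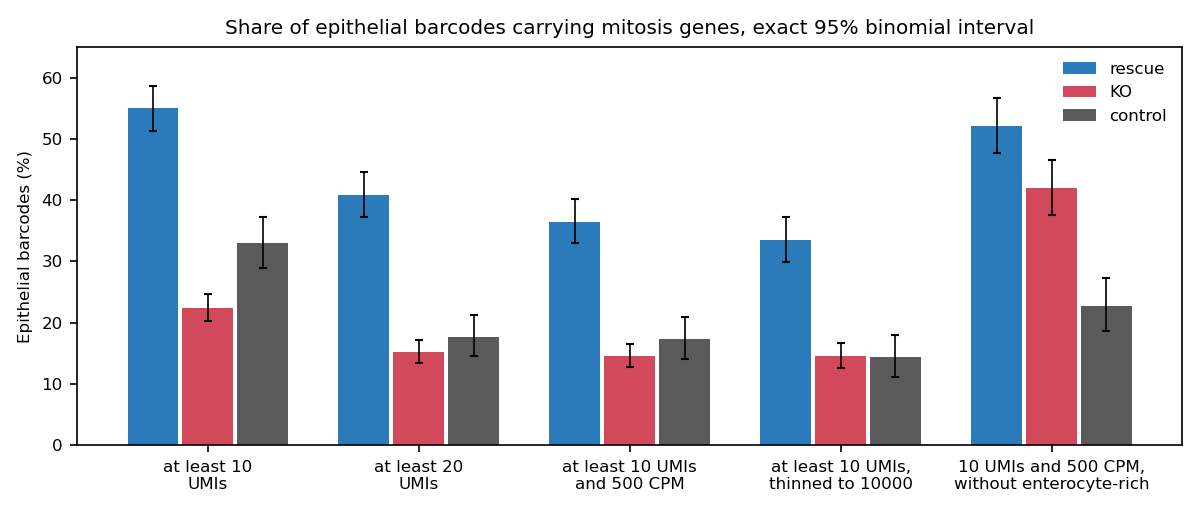
Percent of epithelial barcodes past 5 definitions of carrying mitosis genes, for the rescue, KO and control libraries, with exact 95% binomial intervals. The rescue is highest in each, and the KO lies below the control at 10 UMIs (22.4% and 33.0%) and above it without enterocyte-rich barcodes (42.0% and 22.8%).

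Within the barcodes past 10 UMIs the libraries were closer to each other. These barcodes, like the mitosis-high ones, were picked by the same member counts, so low values were left out of every library by construction. The summed member level there was 2479 CPM in the rescue, 1837 CPM in the KO and 1536 CPM in the control. The ratios were 1.35 for rescue over KO (1.33 to 1.37), 1.61 for rescue over control (1.58 to 1.65) and 1.20 for KO over control (1.17 to 1.22). In mitosis-high barcodes the level was 3556, 2933 and 2804 CPM, with ratios of 1.21 for rescue over KO, 1.27 for rescue over control and 1.05 for KO over control. There 1, 2 and 1 members were at least 2-fold higher in these comparisons, beside 7.47%, 3.7% and 7.19% of all genes, and 0 were lower in any, beside 6.26%, 6.67% and 9.06%. With barcodes thinned to 10000 UMIs the summed level past 10 UMIs was 3945, 3251 and 3683 CPM, so that KO over control was 0.883. Counted member by member past 10 UMIs, 3 of 35 were at least 2-fold higher and 0 lower in rescue over KO, beside 9.28% and 7.72% of all genes. Against the control 7 were higher in the rescue and 0 lower, beside 3.31% and 7.88% of all genes. In KO over control 2 were higher, *Cdk1* and *Top2a*, and 0 lower, beside 8.37% and 12.5% of all genes. The median log2 ratio of all genes lay between -0.04 and 0.02 in these barcodes. A mitosis-high barcode carried a median of 30 of the 35 members in the rescue, 24 in the KO and 23 in the control, at median depths of 58738, 45798 and 41630 UMIs, and the part of depth in these counts was not tested. The 10 barcodes with the most member UMIs held 13.7%, 17.8% and 34.2% of the member UMIs of mitosis-high barcodes, so the control values rest on fewer cells.

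CDK1 and its partners start mitosis. *Cdk1*, the kinase itself, had 67.1 CPM in rescue, 19.0 in KO and 13.3 in control epithelium, and KO over control was 1.43 (1.25 to 1.65). *Ccnb1*, which encodes the cyclin B1 that activates it, had 41.4, 13.2 and 18.5 CPM, and KO over control was 0.711 (0.626 to 0.809). Neither ratio kept its side of 1, and over the alternatives they ranged from 0.891 to 3.33 for *Cdk1* and from 0.512 to 1.65 for *Ccnb1*. *Ccnb2*, another cyclin B, had 61.0, 24.3 and 28.4 CPM, and *Ccna2*, the cyclin A2 of S and G2 phase, had 55.1, 18.7 and 26.4 CPM. The CKS proteins are small subunits that help CDK complexes hold their substrates. *Cks1b* had 52.5, 22.5 and 28.2 CPM and *Cks2* had 150, 53.8 and 94.7 CPM. *Cks2* was the lowest of the group in KO over control at 0.568 (0.536 to 0.602). Summed over the 6 genes the level was 427, 152 and 210 CPM in the rescue, KO and control, and past 10 UMIs it was 587, 438 and 432 CPM.

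The other mitotic kinases order the steps that follow. *Aurka*, the kinase of centrosomes and spindle poles, had 24.7 CPM in rescue, 8.46 in KO and 7.55 in control epithelium. *Aurkb*, which corrects faulty attachments of chromosomes to the spindle, had 27.1, 5.59 and 6.79 CPM. At 4.86 it had the highest ratio of any member in rescue over KO, and it was 2.18 past 10 UMIs. *Plk1*, a kinase used from mitotic entry to cytokinesis, had 24.2, 10.2 and 10.2 CPM, with KO over control at 0.995 (0.844 to 1.18). *Birc5*, which encodes survivin, the partner that brings Aurora B to the centromere, had 156, 65.4 and 48.2 CPM. Its KO over control ratio of 1.36 (1.26 to 1.46) was the highest of the 4 and *Aurkb*, at 0.823 (0.669 to 1.02), was the lowest.

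The spindle checkpoint delays anaphase until every chromosome is attached. *Bub1*, a checkpoint kinase at the kinetochore, had 11.6 CPM in rescue, 4.48 in KO and 3.83 in control epithelium. *Ttk*, which encodes the kinase MPS1 that starts the signal, had 6.90, 2.71 and 3.83 CPM. *Bub3*, which anchors BUB1 at kinetochores, had 59.8, 34.5 and 29.2 CPM, and its ratio of 1.73 was the lowest member ratio of rescue over KO. Much of *Bub3* lay outside mitosis-high barcodes. Of its UMIs, 22.3% in the rescue, 58.0% in the KO and 61.9% in the control were in barcodes where the other 34 members were not mitosis-high. *Cdc20*, the activator that directs the anaphase promoting complex, had 58.4, 22.4 and 34.3 CPM, with KO over control at 0.652 (0.593 to 0.717). *Ube2c*, the ubiquitin-conjugating enzyme that serves that complex, had 207, 56.5 and 58.5 CPM, with KO over control at 0.966 (0.902 to 1.04). Of the 15 genes of the complex core, 1 was at least 2-fold higher and 0 lower in rescue over KO, 0 either way in rescue over control, and 1 each way in KO over control. The shares of all genes were 22.7% and 11.1%, 3.52% and 11.6%, and 10.8% and 25.3% in these comparisons, higher and lower.

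Centromere and kinetochore genes tie the chromosome to the spindle. Summed over the 6 of them the level was 236 CPM in the rescue, 78.9 in the KO and 110 in the control, a KO over control ratio of 0.716. *Cenpa*, the histone that marks the centromere, had 80.7, 27.4 and 41.5 CPM. *Hjurp*, the chaperone that loads it, had 52.4, 17.5 and 27.8 CPM. *Cenpe*, a kinetochore motor, had 36.3, 13.9 and 16.6 CPM, and *Cenpf*, a large kinetochore protein of G2 and M phase, had 47.8, 13.8 and 15.1 CPM. The NDC80 complex binds the microtubule, and 2 of its subunits differed from each other. *Ndc80* had 8.93, 3.91 and 3.99 CPM, with KO over control at 0.981 (0.753 to 1.29). *Nuf2* had 9.61, 2.36 and 5.17 CPM, and at 0.457 (0.350 to 0.597) it was the single member at least 2-fold lower in KO over control. That call rested on 145 UMIs in the KO and 96 in the control, and the ratio was 1.00 under the stricter cell limits and 1.03 without enterocyte-rich barcodes.

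Motors and spindle proteins build the bipolar spindle. *Kif11*, the motor that pushes the poles apart, had 27.6 CPM in rescue, 7.40 in KO and 9.92 in control epithelium. *Kif2c*, which takes microtubules apart at the centromere, had 8.36, 3.33 and 5.34 CPM, and at 1.57 it was the lowest member in rescue over control. *Tpx2*, which activates Aurora A on the spindle, had 30.4, 13.5 and 14.0 CPM. *Tacc3*, which stabilises spindle fibres, had 25.3, 13.0 and 9.49 CPM, the highest KO over control ratio of the group at 1.37 (1.16 to 1.62). *Nusap1*, a protein that bundles spindle microtubules, had 40.6, 8.83 and 15.5 CPM, the lowest at 0.569 (0.492 to 0.659). *Hmmr* and *Dlgap5*, both spindle assembly factors, had 30.8, 12.5 and 13.4 CPM and 11.4, 5.82 and 6.36 CPM. *Ckap2l*, a spindle pole protein, had 13.9, 4.76 and 6.63 CPM, with KO over control at 0.718 (0.579 to 0.894). Over all epithelial barcodes, all 8 were higher in the rescue than in the KO, by 1.95 to 4.59-fold. Without enterocyte-rich barcodes *Kif2c*, *Tpx2* and *Hmmr* were among the members below 1 in rescue over KO.

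The last members act at the spindle midzone, in cytokinesis and on the chromosomes. *Kif23*, the motor of the centralspindlin complex, had 30.9 CPM in rescue, 11.3 in KO and 15.3 in control epithelium, *Kif20b*, a midbody motor, had 29.3, 9.0 and 13.6 CPM, and *Anln*, the ring scaffold anillin, had 13.4, 5.25 and 4.91 CPM. *Mki67*, which encodes the Ki-67 protein coating mitotic chromosomes, had 97.4, 43.9 and 38.5 CPM, with KO over control at 1.14 (1.05 to 1.24). *Smc4*, a condensin subunit, had 104, 40.1 and 49.3 CPM, with KO over control at 0.812 (0.753 to 0.877). *Top2a*, the topoisomerase that untangles sister chromatids (ENSMUSG00000020914, 98992943 to 99024189 on chromosome 11, minus strand, GENCODE vM21), had 101, 26.3 and 17.5 CPM. It was the member with the highest ratio both in rescue over control, at 5.79 (5.17 to 6.5), and in KO over control, at 1.5 (1.33 to 1.70).

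Within the mitosis transcripts themselves, *Top2a* and *Cdk1* took a smaller share in the control than in the other libraries. Of the member UMIs in barcodes past 10 UMIs, *Top2a* made up 5.69% in the rescue (5.52 to 5.86), 4.33% in the KO (4.12 to 4.54) and 2.34% in the control (2.09 to 2.63). *Cdk1* made up 3.76% (3.62 to 3.90), 3.16% (2.98 to 3.35) and 1.84% (1.61 to 2.09). Both genes kept the order rescue, KO, control in 9 of 9 alternatives. *Ube2c* made up 11.6%, 9.28% and 8.13%, with the KO above the control in 8 of 9 alternatives and the rescue above both in 9. *Cks2* went the other way, with 8.18%, 7.70% and 12.1%, and was below the control in the rescue and in the KO in all 9. Others set the KO apart. *Birc5* made up 8.69%, 10.6% and 6.88%, *Mki67* 5.47%, 7.26% and 5.41% and *Tacc3* 1.41%, 2.07% and 1.27%, and the KO was highest for these 3 genes in 9 of 9 alternatives. *Hjurp*, at 2.55%, 1.59% and 2.56%, and *Nusap1*, at 2.29%, 1.46% and 2.26%, were lowest in the KO in 9 of 9. In mitosis-high barcodes *Top2a* made up 5.79%, 4.49% and 2.35%, and *Cks2* 7.82%, 7.26% and 10.6%. Averaged with equal weight for each barcode past 10 UMIs, *Top2a* made up 4.52%, 2.86% and 2.24%.

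**Figure D3:**
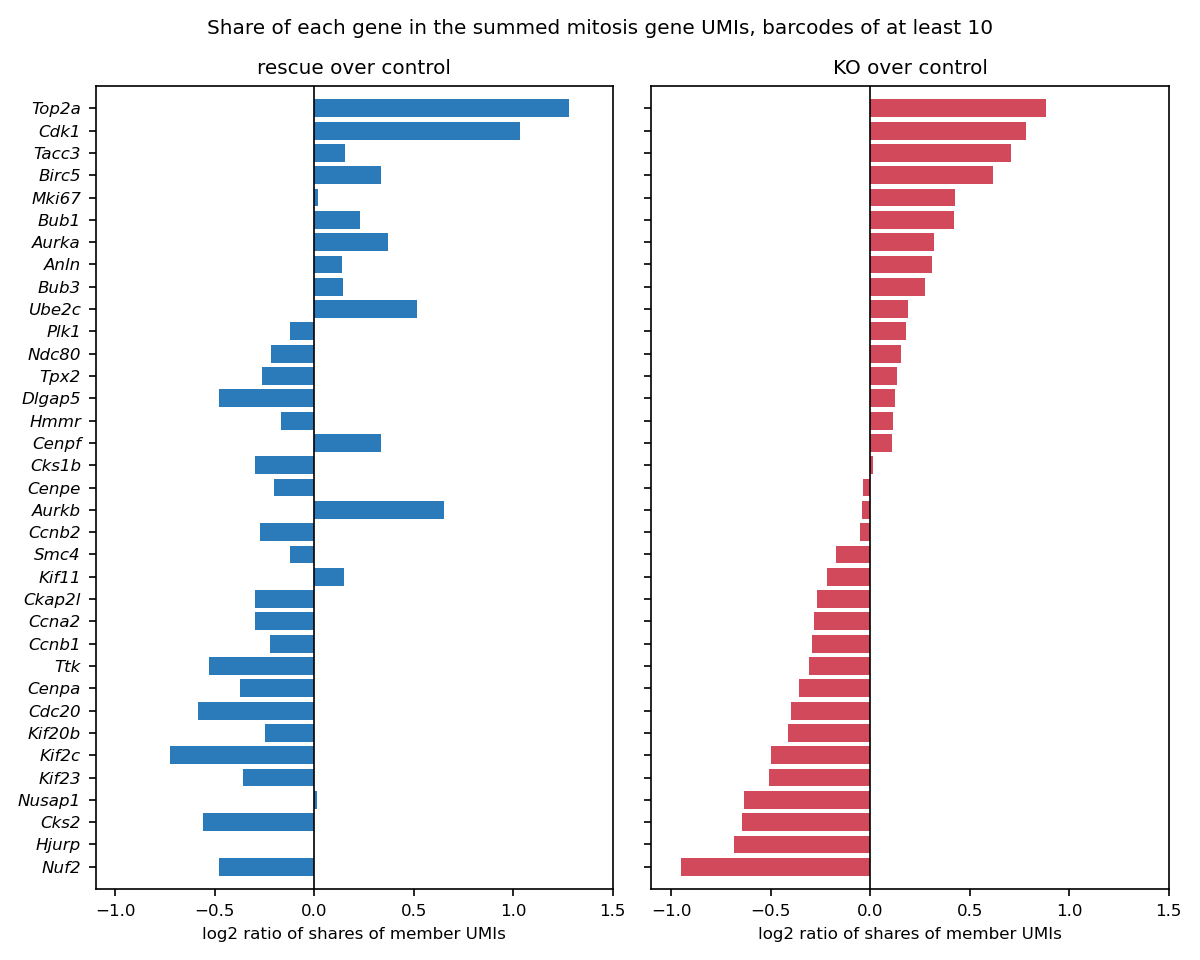
Log2 ratio of each member's share of the summed member UMIs in barcodes of at least 10 such UMIs, for rescue over control (left) and KO over control (right), with genes in the order of KO over control. *Top2a* and *Cdk1* have the longest bars to the right in both panels, at share ratios of 2.43 and 2.04 for the rescue and 1.85 and 1.72 for the KO.

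The members differed in how closely they kept to mitosis-high barcodes. For each one, mitosis-high barcodes were set by the other 34 members alone, so that its own counts played no part. *Kif2c*, *Hmmr*, *Ttk* and *Bub1* lay almost wholly inside them, with at most 3.61% of their UMIs outside in any library. *Hmmr*, for example, was detected in 74.0% of these barcodes in the rescue, 72.1% in the KO and 52.8% in the control, and in 1.3%, 0.856% and 2.11% of the rest. *Hjurp* had 29.1%, 60.3% and 58.4% of its UMIs outside. *Cks2* had 12.0%, 25.4% and 37.0% outside, *Smc4* 10.8%, 30.01% and 35.9%, and *Cks1b* 7.51%, 11.3% and 35.9%. *Bub3*, *Hjurp*, *Cks2* and *Smc4* were thus detected in many epithelial barcodes where the other 34 members were not mitosis-high. For 7 members a gene on the opposite strand overlaps in the annotation, such as *Fgfr2* for *Bub3* and *Tnnc2* for *Ube2c*. The sources used here do not say whether counting used the strand.

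Other mitosis genes, not among the 35, were also mostly higher in rescue over KO. Of 86 listed, 82 were in the tables, and 63 of these were at least 2-fold higher and 0 lower in rescue over KO, beside 22.7% and 11.1% of all genes, with a median log2 ratio of 1.19. Against the control 34 of 82 were higher and 0 lower, beside 3.52% and 11.6%, with a median of 0.76, and in KO over control 2 of 81 were higher and 10 lower, beside 10.8% and 25.3% of all genes, with a median of -0.43. Without enterocyte-rich barcodes the medians were 0.13, 0.68 and 0.55 in the same order. The 2 higher were *Spag5* and *Ccnf*. *Spag5*, which encodes the spindle protein astrin, had 11.1 CPM in the rescue, 13.4 in the KO and 6.04 in the control, with rescue over KO at 0.834. All 35 members were above 1 over the same barcodes, although 13 of them crossed 1 in at least 1 alternative. *Prc1*, the bundler of the spindle midzone, was 3.44-fold higher in rescue than in control epithelium, at 33.4 and 9.70 CPM.

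S phase genes lay further below the control in the KO than the mitosis genes did. Of 40, 21 were at least 2-fold lower and 0 higher, beside 25.3% and 10.8% of all genes, with a median log2 ratio of -0.94, beside -0.28 for all genes, and their summed level was 1151 CPM in the rescue, 530 in the KO and 1113 in the control. *Cdca7*, a chromatin protein of dividing cells, had 54.5, 14.3 and 109 CPM, and *Ung*, a uracil-DNA glycosylase, had 17.6, 5.41 and 28.5 CPM. *Pcna*, the sliding clamp of replication, had 33.4 CPM in the KO and 33.6 in the control, and *Rrm2*, a ribonucleotide reductase subunit, 16.7 and 15.1. In rescue over control 3 of 40 were higher and 1 lower, beside 3.52% and 11.6% of all genes. Their median log2 ratio was 0.05, beside 1.08 for the 35 members, and their summed ratio was 1.03, beside 2.43 for the members. In rescue over KO 27 were higher and 0 lower, beside 22.7% and 11.1% of all genes, with a median of 1.17. Without enterocyte-rich barcodes the S phase medians were -0.04 for rescue over KO, -0.07 for rescue over control and 0.02 for KO over control. In mitosis-high barcodes the S phase sum was 2030, 2019 and 2554 CPM, and 3 of 40 were at least 2-fold lower in KO over control, beside 9.06% of all genes. In the KO the median barcode between 500 and 2000 mitosis CPM had 736 CPM of S phase transcripts, against 1866 CPM in the control, and from 2000 CPM up it had 1953 against 1327 CPM.

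**Figure D4:**
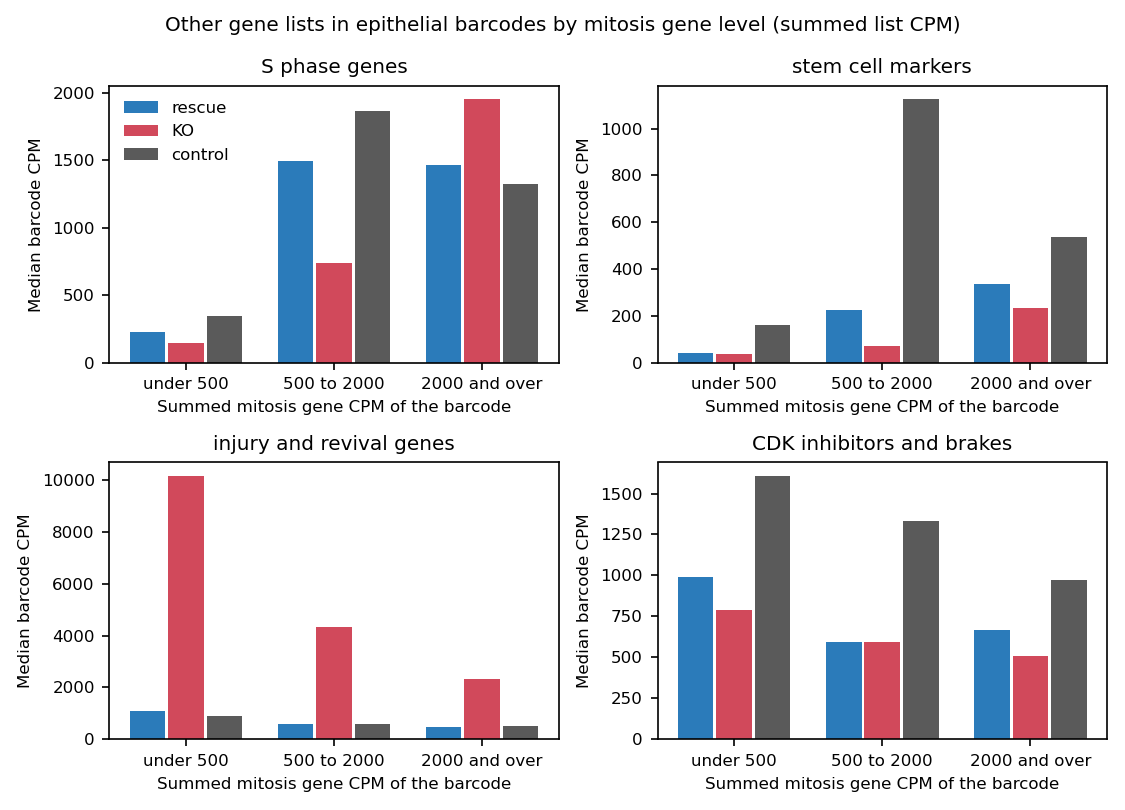
Median over barcodes of the summed CPM of 4 other gene lists, in epithelial barcodes of under 500, 500 to 2000 and at least 2000 summed mitosis gene CPM, for the rescue, KO and control libraries. Injury genes fall with mitosis level in all 3 libraries. Their medians are 10176, 4317 and 2311 CPM in the KO, where they are highest in each class. They are 1080, 598 and 457 CPM in the rescue and 891, 581 and 486 CPM in the control.

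Regulators of the division cycle were examined next. *Foxm1*, the forkhead factor of G2 and M genes, had 15.4 CPM (13.7 to 17.3) in rescue, 16.6 (14.3 to 19.1) in KO and 12.4 (9.21 to 16.4) in control mitosis-high barcodes. *Mybl2*, which encodes B-MYB, had 13.2 (11.6 to 14.9), 20.4 (17.9 to 23.1) and 11.4 CPM (8.36 to 15.2). The intervals of *Foxm1* overlapped in all pairs, and that of *Mybl2* in the KO lay above the others. *Myc* had 27.9, 14.1 and 40.0 CPM and *Ccnd1*, the cyclin D1 of G1 phase, 166, 88.2 and 127 CPM. The 24 cell cycle transcription factors had 11 higher and 0 lower in rescue over KO, 3 and 0 in rescue over control, and 0 and 7 in KO over control. The shares of all genes were 22.7% and 11.1%, 3.52% and 11.6%, and 10.8% and 25.3%, so the 7 of 24 lower in KO over control were near the share of all genes. Of 13 G1 cyclins and kinases, 8 were higher and 0 lower in rescue over KO, 1 and 1 in rescue over control, and 1 and 7 in KO over control. *Cdk6*, a kinase of G1 phase, was the lowest in KO over control, at 9.96 against 62.8 CPM. Without enterocyte-rich barcodes the median log2 ratio of this list was 0.08 in KO over control, in place of -0.99.

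Among CDK inhibitors and other brakes, 2 of 13 tested were at least 2-fold higher in KO over control, *Cdkn1a* and *Cdkn2b*, and 6 lower, beside 10.8% and 25.3% of all genes. In rescue over control 1 was higher and 3 lower, beside 3.52% and 11.6% of all genes. In rescue over KO 4 were higher and 1 lower, beside 22.7% and 11.1%. *Cdkn1a*, which encodes the CDK inhibitor p21, had 89.7 CPM in rescue, 310 in KO and 139 in control epithelium. Split by mitosis level, it had 54.1, 107 and 76.2 CPM in mitosis-high barcodes and 123, 358 and 156 CPM in the rest. It was thus lower in mitosis-high barcodes in each library and highest in the KO in both classes. After the thinning described above, *Cdkn1a* was detected in 29.69%, 50.25% and 42.35% of mitosis-high barcodes in the rescue, KO and control. In enterocyte-rich barcodes it was detected in 75.29%, 92.13% and 63.30%, in the same order. The part of enterocyte-rich cells in the *Cdkn1a* levels was not tested. Brakes lower in the KO included *Gadd45a*, a stress-induced growth inhibitor, at 37.0 against 225 CPM, and *Btg2*, an anti-proliferative gene, at 186 against 706 CPM.

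Mitosis-high barcodes of the KO carried fewer stem cell transcripts than those of the control. *Lgr5*, a receptor of crypt base stem cells, had 12.2 CPM in rescue, 1.80 in KO and 47.4 in control mitosis-high barcodes, and *Olfm4*, the gene that also carries the Cre, 65.4, 22.4 and 138 CPM. Summed over 11 stem cell markers the level there was 547, 315 and 1207 CPM, and 11 of 11 were at least 2-fold lower in KO over control, beside 9.06% of all genes in these barcodes, and 9 in rescue over control, beside 6.67%. From 2000 mitosis CPM up the median barcode was under these sums, at 335, 232 and 535 CPM. Between 500 and 2000 mitosis CPM the median barcode held 223, 69.3 and 1126 CPM, in the same order. The injury and revival genes, known from regenerating epithelium, were highest in the KO. Their sum in mitosis-high barcodes was 571, 4382 and 590 CPM, and 12 of 15 tested were at least 2-fold higher in KO over control, beside 7.19% of all genes. *Clu*, clusterin, had 0.313, 42.2 and 1.74 CPM, and *Anxa1*, annexin A1, had 0.157, 81.2 and 0 CPM, the control count of 0 allowing 3 counts, or up to 0.745 CPM. *S100a6*, a calcium-binding protein, had 34.9, 1834 and 20.9 CPM. Thinned to 10000 UMIs, *Anxa1* was detected in 29.1% of 203 mitosis-high KO barcodes and in 6.30% of 826 enterocyte-rich KO barcodes, and in 0 of 256 and 0 of 85 mitosis-high barcodes of the rescue and the control. *Clu* was closer to the enterocyte-rich barcodes, at 13.8% against 9.93%, and at 42.2 CPM in mitosis-high and 42.0 CPM in the other KO barcodes. *S100a6* was detected in 98.0% against 100% and was lower in mitosis-high KO barcodes than in the rest, at 1834 against 5868 CPM. Enterocyte markers were also higher in the mitosis-high barcodes of the KO, at 6293 CPM against 2002 in the rescue and 1657 in the control, and their part in these values was not tested.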

How the data were processed

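Crypt cells of 3 genotypes were sequenced as 1 library each. The deposited matrices hold whole-number counts of UMIs per gene and barcode, written by the authors with Cell Ranger 3.0.2 for the KO and the control and 3.1.0 for the rescue, per the file headers. Version 1.3.0 of Cell Ranger stands in the submitters' processing notes. No build of the genome is given in the sources used here. Coordinates are from GENCODE vM21, which matched 98.8% of the gene identifiers, and promoters from RefSeq.

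From the counts, a barcode needed 500 genes, 1000 UMIs and a mitochondrial share of up to 20%, which held for 1897 of 3449 barcodes in the rescue, 2036 of 4786 in the KO and 1595 of 6152 in the control. Library totals were 64355665, 85525811 and 58433966 UMIs. Across whole libraries, 6, 3 and 11 barcodes were shared between rescue and KO, rescue and control, and KO and control. UMIs were summed per library and divided by all UMIs of the same barcodes. Ratios have exact conditional binomial intervals, and shares have exact Clopper-Pearson intervals, which cover counting error only. A gene was called at 2-fold with at least 20 UMIs in 1 of 2 libraries. List medians are of log2 ratios with a pseudocount of 1 CPM. UMI tags mark transcript ends and are not scaled by length, so levels are compared between libraries and not between genes.

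Enterocyte-rich barcodes had at least 2% of UMIs from 15 fixed markers. Doublets were left in for the main values, and removed as an alternative by simulated-doublet score (29, 33 and 20 barcodes in the rescue, KO and control). The ratio and thinning steps were checked on simulated data. The members, lists and rules were chosen with earlier results of these data known. All 35 members could be named. Of other lists, the 2 highest and 2 lowest by log2 ratio, and *Foxm1*, *Mybl2*, *Cdkn1a*, *Lgr5*, *Olfm4*, *Clu*, *Anxa1*, *Epcam*, *Ptprc*, *Cdc42*, *Yap1* and *Wwtr1*, could be named. *Ccnd1*, *Myc* and *S100a6* levels in mitosis-high barcodes were given after their values were seen. Alternatives were other cell limits, *Epcam* thresholds, thinning, scalings, thresholds and filters. Tools were Python 3.11.15, numpy 2.4.6, scipy 1.17.1, pandas 2.3.3 and scikit-learn 1.9.0.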

Additional observations from a re-analysis of the deposited data

Results flagged for a closer look

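Barcodes over the mitochondrial limit entered no comparison. Those that met the epithelial rule, 697 in the rescue, 1447 in the KO and 2170 in the control, still carried the mitosis genes, at 412.0 CPM (400.2 to 424.2) in the rescue, 107 CPM (102 to 112) in the KO and 378 CPM (370 to 386) in the control. They are listed as data left out of the main values, and the rescue value lay above that of the control. The main values used 726, 1504 and 515 epithelial barcodes, so in the control more barcodes lay over the limit than entered the main values. Counted over UMIs that are not mitochondrial, the levels were 817, 179 and 857 CPM, so that the rescue no longer lay above the control. Their median mitochondrial share was 58.0%, 41.2% and 59.9%, and 5.74%, 1.31% and 8.57% of them were at or above 500 mitosis CPM. The reason for these values was not tested.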

How the results depend on the processing

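Of 252 values of the main results under alternatives, 152 stayed within their interval or count range and 100 moved. The direction of KO over control in summed level was the least stable, and the order of rescue above both other libraries in summed level over all epithelial barcodes was kept in every alternative run. A named alternative's cause was not tested unless stated, thinning and thresholds excepted, which change the counts by construction.

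The share of epithelial barcodes past 10 member UMIs was, for rescue, KO and control, 75.9%, 43.2% and 59.6% at 5 UMIs, 40.9%, 15.2% and 17.7% at 20 UMIs, 36.5%, 14.6% and 17.3% at 500 CPM, and 33.5%, 14.5% and 14.3% after thinning. It was 49.0% and 32.8% for rescue and KO under the strict limits, 45.1%, 14.2% and 27.0% with up to 50% mitochondrial UMIs, 59.8% and 37.3% for rescue and control with 5 *Epcam* UMIs, and 73.3%, 51.1% and 37.6% without enterocyte-rich barcodes, an alternative chosen after seeing the data.

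The summed ratios for rescue over KO, rescue over control and KO over control were 2.83, 4.49 and 1.59 under the strict limits, 3.01, 2.32 and 0.772 with up to 50% mitochondrial UMIs, 2.57, 2.07 and 0.805 after thinning, 1.16, 2.26 and 1.94 without enterocyte-rich barcodes, 3.18, 2.58 and 0.809 without mitochondrial and ribosomal protein UMIs in the totals, 2.28, 2.35 and 1.05 with the median gene ratio at 1, and 2.60, 1.89 and 0.726 as means of barcodes. Without *Mki67* and *Top2a* rescue over control was 2.34 and KO over control 0.839.

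Within barcodes past the threshold the same ratios were 1.67, 2.63 and 1.57 under the strict limits, 1.21, 1.07 and 0.883 after thinning, 1.15, 1.21 and 1.06 at 20 UMIs, 1.21, 1.27 and 1.05 at 500 CPM, 1.04, 1.48 and 1.42 without enterocyte-rich barcodes, and 1.46, 1.66 and 1.14 without mitochondrial and ribosomal UMIs. Rescue over control and KO over control were 1.53 and 1.14 with up to 50% mitochondrial UMIs, and 1.52 and 1.13 without *Mki67* and *Top2a*. Rescue over KO and rescue over control were 1.21 and 1.45 as means of barcodes, and rescue over KO was 1.33 without likely doublets.

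Members at least 2-fold higher in KO over control numbered 9 under the strict limits and 15 without enterocyte-rich barcodes, and those lower numbered 0 in both, 0 with the median gene ratio at 1, 3 as means of barcodes and 8 at 1.5-fold. In rescue over control 14 were higher after thinning and 13 as means of barcodes, and in rescue over KO 1 was higher without enterocyte-rich barcodes. Within barcodes past 10 UMIs, those higher in KO over control numbered 8 under the strict limits, 0 with up to 50% mitochondrial UMIs, 0 after thinning, 4 without enterocyte-rich barcodes, 1 without *Mki67* and *Top2a*, 1 without mitochondrial and ribosomal UMIs, 0 as means of barcodes and 6 at 1.5-fold, and 1 was lower after thinning and at 1.5-fold. In rescue over control 26 were higher under the strict limits, 4 with up to 50% mitochondrial UMIs, 2 after thinning, 4 without enterocyte-rich barcodes, 4 as means of barcodes and 15 at 1.5-fold. In rescue over KO 9 were higher under the strict limits, 0 without enterocyte-rich barcodes, 1 as means of barcodes and 10 at 1.5-fold. For all epithelial barcodes without enterocyte-rich ones, 11.5% of all genes were higher and 12.4% lower in KO over control. In rescue over KO 7.72% were higher there. Under the other alternatives of this paragraph the share of all genes was not taken, so those counts cannot be set against it.

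Over epithelial barcodes, the ratios of 32 of 35 members in KO over control, 13 in rescue over KO and 0 in rescue over control crossed 1 in at least 1 alternative. Within barcodes past the threshold 21, 18 and 22 did. Of the ratios at least 2-fold, and list medians of at least 1 on the log2 scale, 14 values turned in direction. *Nuf2* in KO over control was 1.00 under the strict limits and 1.03 without enterocyte-rich barcodes. In rescue over KO without enterocyte-rich barcodes *Cks1b* was 0.907, *Plk1* 0.916, *Birc5* 0.972, *Bub1* 0.994, *Ttk* 0.9754, *Cdc20* 0.982, *Ndc80* 0.862, *Kif2c* 0.946, *Tpx2* 0.857, *Hmmr* 0.950, *Mki67* 0.875, and the S phase median log2 ratio was -0.036. No paired analysis was possible because each genotype has 1 library, and no replicate could be left out. Depth limits the rarer members most, and the control, with the fewest epithelial UMIs, has the widest intervals.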

Other observations

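Barcodes with *Ptprc* and without *Epcam*, which were outside the epithelial comparisons, held mitosis transcripts at 843 CPM in the rescue, 1076 CPM in the KO and 634 CPM in the control. Of these 472, 125 and 366 barcodes, 12, 6 and 7 were mitosis-high, or 2.54%, 4.80% and 1.91%. Mitosis-high epithelial barcodes of the KO held erythroid transcripts at 264 CPM, against 11.4 CPM in the rescue and 25.3 CPM in the control, although the median KO barcode from 2000 mitosis CPM up held 0. Paneth markers in the same population were at 3041, 96.7 and 27764 CPM in the rescue, KO and control. In the control the pooled Paneth level from 2000 mitosis CPM up was 15946 CPM and the median barcode held 379 CPM, so a few barcodes carried most of it.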
